A study of Homo sapiens with 2 samples.

Results

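The Hippo pathway was examined through 10 genes in C4-2 cells, an androgen receptor-positive human prostate cancer line derived from LNCaP. The genes were WWTR1, YAP1, TEAD1, TEAD2, TEAD3, TEAD4, LATS1, LATS2, CCN1 and CCN2. Every probe set that the array annotation gives to exactly 1 of them was taken, which made 27 of 54675 probe sets, and these 10 genes stand among 19775 with a name of their own. The group was selected on the low signal of WWTR1 after miR-99a, read from these same arrays, so the differences are a description and carry no test.

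Total RNA was hybridised to Affymetrix arrays 48 h after transfection by RNAiMax. One culture had received miR-99a and the other si-GL2, a small interfering RNA that served as control. Both cultures carried a transfected small RNA, and neither was untransfected. Each condition was measured on 1 array, so no value below has a replicate error and no difference has a p-value. In cultures measured in bulk, fewer cells of a type and less RNA per cell cannot be told apart.

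The Hippo pathway is a kinase cascade that restrains tissue growth. STK3 and STK4 activate the kinases LATS1 and LATS2, which phosphorylate the coactivators YAP and TAZ and so keep them out of the nucleus or mark them for degradation. Coactivators that escape phosphorylation bind TEAD transcription factors in the nucleus and switch on genes such as CCN1 and CCN2. TAZ is the product of WWTR1, and in carcinoma cells YAP and TAZ are known for links to growth, motility and contact with the matrix.

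The transfected RNA is shown first because it is what separates the arrays. The labels do not give its arm. The 5p arm belongs to the family whose members share the seed, bases 2 to 8, in capitals below. The sequences are from RefSeq, build GRCh38.p14.
hsa-miR-99a-5p: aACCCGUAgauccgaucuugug
hsa-miR-100-5p: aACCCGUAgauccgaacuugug
hsa-miR-99b-5p: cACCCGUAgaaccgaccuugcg
All have 22 bases. Counted from 1 at the 5′ end of miR-99a-5p, miR-100-5p differs by U16A alone, and miR-99b-5p differs by A1C, U11A, U16C and U21C. In the order shown they lie at chr21:16539101-16539122 on the plus strand, chr11:122152275-122152296 on the minus strand and chr19:51692618-51692639 on the plus strand. Sites for this seed in the transcripts of the Hippo genes were not analysed here.

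A second sequence set bears on the readout of the pathway. TEAD factors bind the letters GGAATG, read on the other strand as CATTCC. Promoter windows of 250 bases before the start were searched on both strands for these letters. Windows were at hand for 7 of the 10 genes, 10 windows in all. CCN2 is the textbook readout of YAP and TAZ. Only the upstream windows of CCN2 and YAP1 held matches, shown in capitals, and they are printed for that reason. They lie at chr6:131951373-131951622 on the minus strand and chr11:102110197-102110446 on the plus strand of GRCh38.p14 (RefSeq), and both are written in the direction of the gene.
CCN2: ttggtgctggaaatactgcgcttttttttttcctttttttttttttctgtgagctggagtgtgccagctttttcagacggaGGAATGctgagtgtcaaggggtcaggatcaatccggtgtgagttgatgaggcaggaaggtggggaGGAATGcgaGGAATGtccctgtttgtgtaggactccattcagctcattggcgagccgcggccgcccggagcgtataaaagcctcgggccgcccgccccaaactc
YAP1: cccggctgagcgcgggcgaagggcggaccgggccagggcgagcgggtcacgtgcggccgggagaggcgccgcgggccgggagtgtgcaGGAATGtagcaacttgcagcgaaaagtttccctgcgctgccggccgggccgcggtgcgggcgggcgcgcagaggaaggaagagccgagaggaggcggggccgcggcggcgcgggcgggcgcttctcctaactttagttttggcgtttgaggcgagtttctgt
The CCN2 window held 3 matches, which begin 169, 104 and 95 bases before the start. The YAP1 window held 1, at 162 bases before the start. In the stretch just after the start, LATS2 held 1 match, which began at base 10, and the windows of WWTR1, TEAD2, TEAD3 and LATS1 held 0. Of 35116 windows of 250 bases, 11.9% held at least 1 match and 0.0826% at least 3. A match describes letters and not a bound site.

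Values are array signals on a linear scale. Differences are always miR-99a minus si-GL2 on the log2(signal + 16) scale, which understates the change of dim probe sets, and a probe set was counted as lower or higher at 1.5-fold, that is 0.58 on this scale. A probe set counted as expressed when its mean over both arrays reached the median of all probe sets, a signal of 47.2. The limit is a relative one and makes no detection call. Of the 27 probe sets, 18 from 9 genes reached it, and CCN2 did not. Probe sets differ in brightness for reasons other than RNA amount, so signals are compared between arrays and not between genes.

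Both coactivators were at least 1.5-fold lower after miR-99a by the brightest probe set. Each also had an expressed probe set near 0 (WWTR1 -0.09, YAP1 -0.13). CCN1 (-0.49), TEAD1 (-0.35) and LATS2 (-0.30) were lower but short of 1.5-fold by the brightest probe set. On the same measure TEAD2, TEAD3, TEAD4 and LATS1 lay between -0.17 and 0.09. Among the 18 expressed probe sets 5 were at least 1.5-fold lower (2 of WWTR1, 2 of YAP1 and 1 of LATS2) and 0 were higher. Over all 22407 expressed probe sets with 1 gene, 2.76% were lower and 1.53% higher. Of the 5, those of WWTR1 and LATS2 passed the expression limit only through the si-GL2 array. Because the genes were chosen with this contrast known, the shares are set side by side and nothing is read from the gap. By the brightest probe set of each gene, 2 of 9 expressed genes were lower, WWTR1 and YAP1, beside 2.90% of 12218 expressed genes lower and 1.21% higher. The probe set that stands for WWTR1 was its brightest only through the si-GL2 array. At 2-fold, 2 of the 18 probe sets were lower, beside 0.317% of expressed probe sets lower and 0.138% higher, and WWTR1 was the 1 gene of the 9, beside 0.336% of genes lower and 0.139% higher. The median of the 9 genes was -0.30 beside -0.03 over all expressed genes. WWTR1 is among the 9, so nothing is read from this gap either. Over the 18 expressed probe sets the median was -0.24, and over the 15 without WWTR1 it was -0.17.

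**Figure D1:**
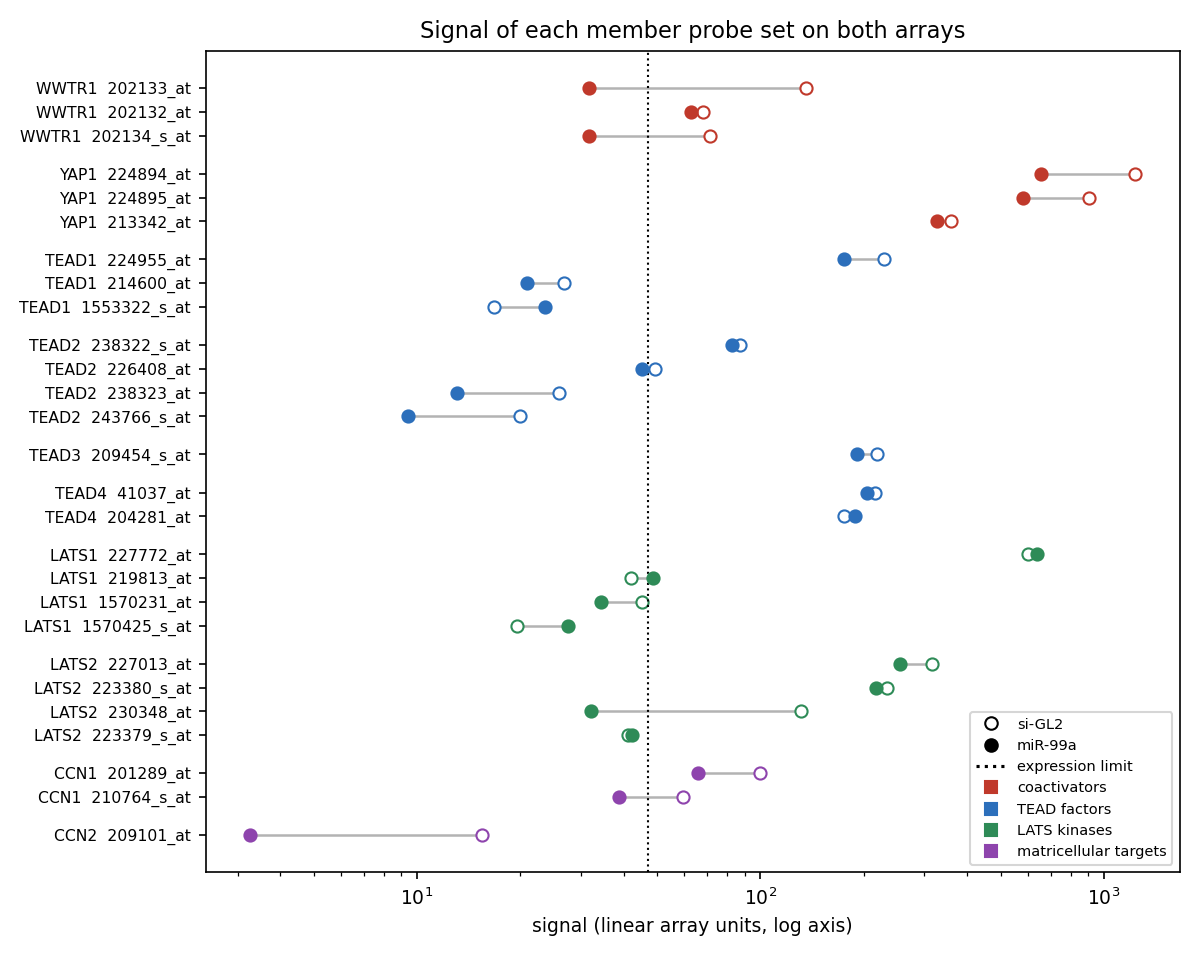
Signal of the 27 probe sets on each array, on a log axis, with open circles for si-GL2, filled circles for miR-99a and colours for the role of the gene; the dotted line marks the expression limit of 47.2, which applies to the mean of both arrays. WWTR1 and LATS2 each have 1 probe set with a gap of about the same width, from 135 to 31.6 and from 131 to 32.2. Another WWTR1 probe set has a gap from 71.5 to 31.7, and the last has hardly any. The remaining LATS2 probe sets have narrow gaps.

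WWTR1 encodes TAZ, the coactivator that shuttles between cytoplasm and nucleus. Its brightest probe set, 202133_at, read 31.6 with miR-99a and 135 with si-GL2. The miR-99a array was 4.28-fold lower as a plain ratio, a difference of -1.67 on the log2(signal + 16) scale. Ordered from the lowest difference, this probe set was at place 4 among the 22407 expressed ones, and the gene was at place 3 among 12218. The group was selected on this low signal, so nothing is read from either place. 202133_at was the brightest only through the si-GL2 array, since with miR-99a 202132_at was brighter. Probe set 202134_s_at had signals of 31.7 and 71.5, a difference of -0.87. The last, 202132_at, had 62.7 and 67.9, a difference of -0.09. The miR-99a array was therefore the lower one in each of the 3 probe sets, past 1.5-fold in 2 of them. The signals that carry the difference are dim: after miR-99a both lower probe sets were under the expression limit, and each counted as expressed through the si-GL2 array. 202134_s_at lay just inside, with a mean signal of 48.6.

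YAP1 encodes YAP, the paralogue of TAZ and the more widely studied of the pair. Its brightest probe set, 224894_at, read 658 with miR-99a and 1236 with si-GL2. The difference was -0.89, a plain ratio of 1.88. Probe set 224895_at had 581 and 906, a difference of -0.63. Probe set 213342_at had 327 and 359, a difference of -0.13. All 3 signals were lower on the miR-99a array and all lay well above the expression limit on both arrays. With a pseudocount of 64 WWTR1 was at -1.06. As means over all probe sets WWTR1 was at -0.88 and YAP1 at -0.55, the latter short of 1.5-fold.

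The TEAD factors are the DNA-binding partners of both coactivators. TEAD1 had 1 expressed probe set, 224955_at, with 176 with miR-99a and 228 with si-GL2, a difference of -0.35. Its other probe sets were below the limit, 1 with 20.9 and 26.7 (-0.21) and 1 with 23.6 and 16.8 (0.27). TEAD3 was measured by 1 probe set with 191 and 218, a difference of -0.17. TEAD4 had 204 and 215 by one probe set (-0.07) and 188 and 175 by the other (0.10), so its probe sets pointed in opposite directions. None of these reached 1.5-fold.

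TEAD2 had 4 probe sets. The brightest, 238322_s_at, had 82.5 with miR-99a and 86.9 with si-GL2, a difference of -0.06. Another, with 45.2 and 49.1, lay exactly at the expression limit, which it reached only through the si-GL2 array, and differed by -0.09. The remaining pair was dim, with 13.1 and 25.8 (-0.53) and with 9.38 and 19.9 (-0.50). Over the 6 expressed probe sets of the TEAD factors, 5 lay below 0 and 1 above, with a median of -0.08, a range of -0.35 to 0.10 and 0 past 1.5-fold.

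LATS1 and LATS2 are the kinases that phosphorylate YAP and TAZ. LATS1 had 639 with miR-99a and 600 with si-GL2 by its 1 expressed probe set, 227772_at, a difference of 0.09, and was the 1 expressed gene of the 9 above 0. Its 3 dim probe sets differed by between -0.28 and 0.29, and the nearest to the limit had 48.7 and 42.0.

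LATS2, which is also induced by YAP and TAZ, had 3 expressed probe sets that did not give 1 value. The brightest, 227013_at, had 254 with miR-99a and 316 with si-GL2, a difference of -0.30. The next, 223380_s_at, had 217 and 233, a difference of -0.09. The third, 230348_at, had 32.2 and 131, a plain ratio of 4.07 and a difference of -1.61, at place 6 from the lowest among the 22407 expressed probe sets. This probe set counted as expressed only through the si-GL2 array, so nothing is read from its place. The last, below the limit, had 42.4 and 41.1 (0.03). The gene was thus short of 1.5-fold by the rule of the brightest probe set, and past it by 1 probe set of 4.

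**Figure D2:**
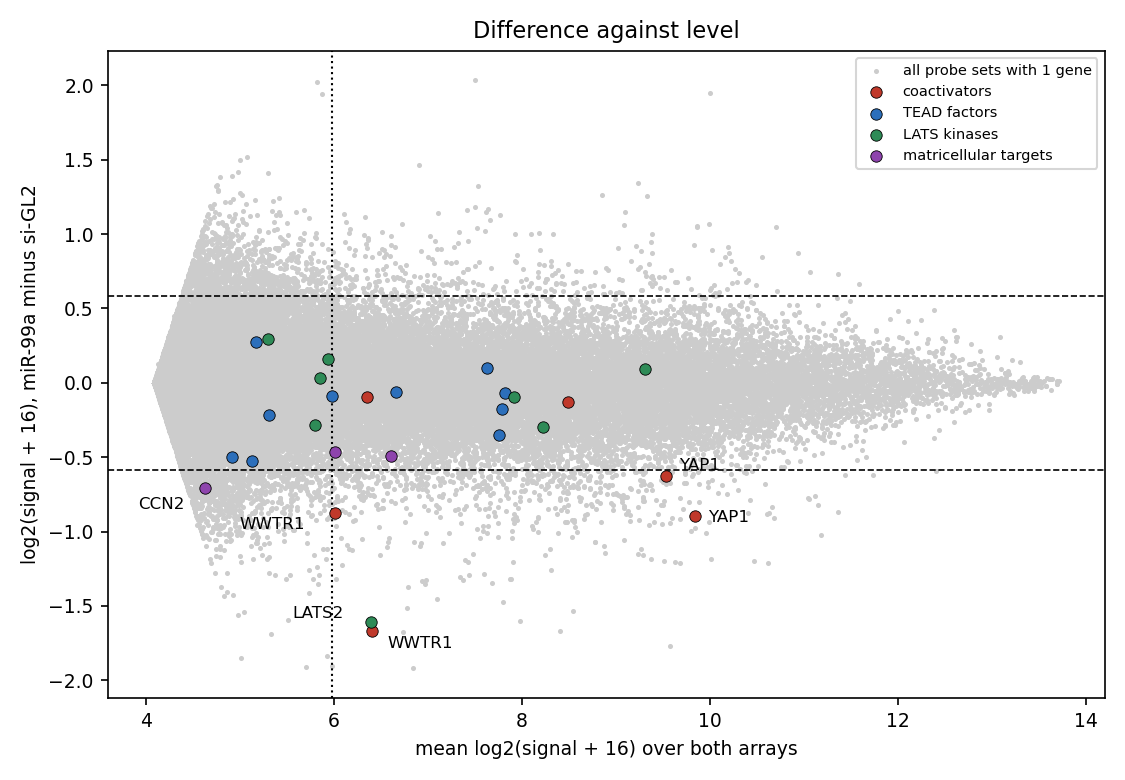
Difference on the log2(signal + 16) scale, miR-99a minus si-GL2, against the mean level of each probe set; grey points are all probe sets with 1 gene, coloured points the 27 of the Hippo genes, dashed lines 1.5-fold and the dotted line the expression limit. The lowest coloured points are 1 probe set each of WWTR1 (-1.67) and LATS2 (-1.61) near the limit. The YAP1 points stand at a high level, at -0.89, -0.63 and -0.13.

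CCN1 and CCN2 encode secreted matricellular proteins and are the usual readouts of YAP and TAZ activity. CCN1 had 65.9 with miR-99a and 99.4 with si-GL2 in its brighter probe set, a difference of -0.49, and 38.8 and 59.6 by the other, a difference of -0.46. Both probe sets gave nearly the same difference, and both were short of 1.5-fold on the log2(signal + 16) scale, although the plain ratios were 1.51 and 1.54. The dimmer of them was just inside the expression limit, with a mean signal of 48.3. It passed the limit only through the si-GL2 array, so nothing is read from the likeness of the 2 differences. CCN2 was measured by 1 probe set, with 3.26 with miR-99a and 15.5 with si-GL2. Its difference was -0.71 with a pseudocount of 16, -1.95 with 1 and -0.24 with 64, so at this brightness the size of the difference is set by the pseudocount. Among probe sets with 1 gene below the expression limit, 4.87% were at least 1.5-fold lower and 5.63% higher.

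The disagreement between probe sets of WWTR1 and of LATS2 is given beside that of other genes as a description. The WWTR1 spread rests on the low value the genes were selected on, and the lowest probe sets of both genes passed the expression limit only through the si-GL2 array, so nothing is read from their place. Of 2611 genes with at least 3 expressed probe sets, the median spread between the highest and the lowest difference was 0.31 and the 95th percentile 0.77. WWTR1 had a spread of 1.58, which 3 genes including itself reached, and LATS2 had 1.51, which 5 genes reached (0.191%). The other 3 of those 5 were PSD4, TLE1 and LZTS2. YAP1 had a spread of 0.77, reached by 5.21% of genes. Which part of the transcript each probe set reads was not analysed here. An annotated antisense gene of WWTR1, WWTR1-AS1, was below the limit by both of its probe sets, with 17.1 with miR-99a and 3.91 with si-GL2, and with 18.2 and 15.7.

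**Figure D3:**
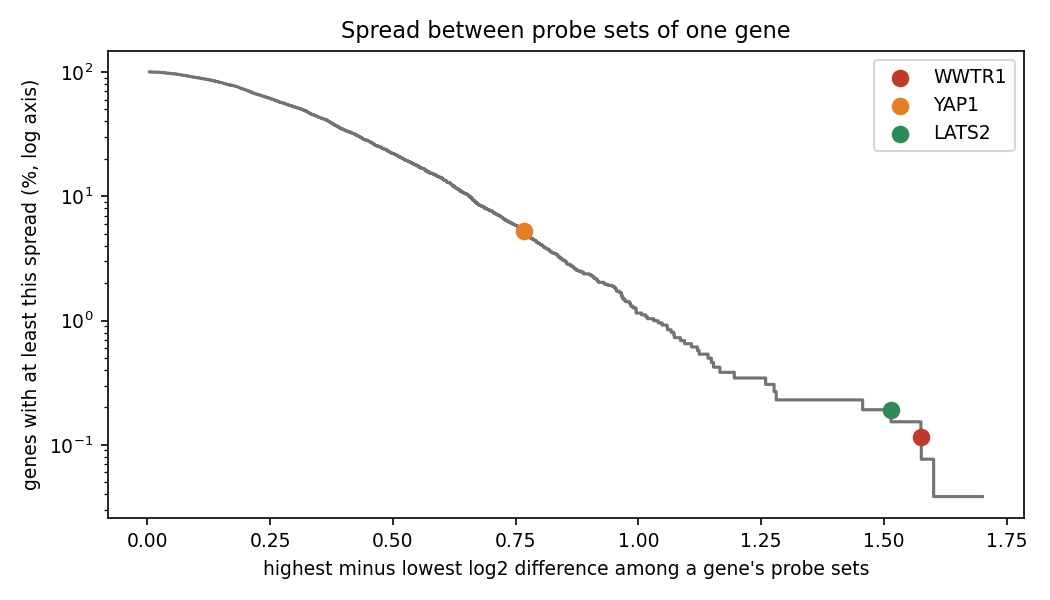
Share of the 2611 genes with at least 3 expressed probe sets (log axis, percent) whose probe sets spread by at least the value on the horizontal axis, the highest minus the lowest log2 difference. YAP1 lies at 0.77, close to the 95th percentile, and LATS2 is at 1.51 and WWTR1 at 1.58, positions that follow in part from how the genes were selected and filtered.

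The pathway around these genes was described by 5 lists, from kinases and scaffolds to target genes, which hold 67 genes between them. Of 48 expressed genes, 24 lay below 0 and 24 above, the median was -0.01, and 1 was at least 1.5-fold lower and 1 higher. This is near the background of 2.90% lower and 1.21% higher among all expressed genes, of which 6875 lay below 0 and 5343 above. Among kinases and scaffolds, 15 were expressed, with a median of 0.01. WWC3, a relative of the LATS activator KIBRA, had 182 with miR-99a and 311 with si-GL2, a difference of -0.73, and its second probe set was at -0.88. FRMD6, a FERM-domain protein that acts upstream in the pathway, had 129 and 80.6, a difference of 0.59 that was just past 1.5-fold, with its second probe set at 0.48. After centring of the arrays on their medians FRMD6 no longer passed. By the brightest probe set, the core kinases STK3 (0.03) and STK4 (0.22), the adaptor SAV1 (0.07) and the LATS cofactors MOB1A (0.27) and MOB1B (0.10) were slightly above 0. The 5 expressed probe sets of STK4 ran from -0.32 to 0.43. MAP4K4 (-0.40) and TAOK1 (-0.31) were below 0, though the expressed probe sets of TAOK1 ran from -0.41 to 0.38. Of the 15 genes, 7 lay below 0 and 8 above. The tumour suppressor NF2 was at -0.20.

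Of 9 expressed polarity and junction genes, 0 passed 1.5-fold in either direction by the brightest probe set, and the median was -0.03. The protocadherin DCHS1 was lowest (-0.27) and FAT1 highest (0.30). LLGL2, another polarity gene, was at 0.18, and its dimmer probe set at 0.73. Of 6 expressed genes listed as inhibitors of LATS, 0 passed 1.5-fold by the brightest probe set and the median was 0.03. The direction in which each listed gene acts on LATS was not tested. STRN3, a striatin scaffold of the phosphatase complex that opposes the Hippo kinases, was lowest with 846 with miR-99a and 1133 with si-GL2 (-0.41), or -0.74 by its second probe set. STK25 was highest at 0.35.

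Of 12 expressed genes that bind YAP and TAZ or direct their degradation, 0 passed 1.5-fold and the median was -0.04. AMOTL2, an angiomotin that holds YAP in the cytoplasm, was lowest at -0.28. VGLL4, which competes with YAP for TEAD factors, was highest at 0.28, with both probe sets between 0.26 and 0.28. FBXW11, a substrate adaptor of the ubiquitin ligase that degrades TAZ, was at -0.26 and -0.25.

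The target list held 19 genes known to be induced by YAP and TAZ, beyond CCN1, CCN2 and LATS2, of which 18 were measured and 8 were expressed. Of the 8, 5 lay below 0 and 3 above, 0 passed 1.5-fold, and the median was -0.16. GADD45A was lowest, with 734 with miR-99a and 949 with si-GL2 (-0.36), and IGFBP3 highest, with 97.4 and 73.0 (0.35). DOCK5 was at -0.30, AMOTL2 at -0.28 and PTPN14 at -0.21, while ASAP1 was at 0.19 and FJX1 at 0.12. The 4 expressed probe sets of ASAP1 ran from 0.19 to 0.44. Those of DOCK5 ran from -0.30 to -0.13 and those of PTPN14 from -0.26 to 0. Several defining targets were below the limit on these arrays, among them ANKRD1 with 25.7 and 18.9, AXL with 12.6 and 14.1 and F3 with 12.0 and 9.38. AMOTL2 and PTPN14 are on both of the last lists.

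**Figure D4:**
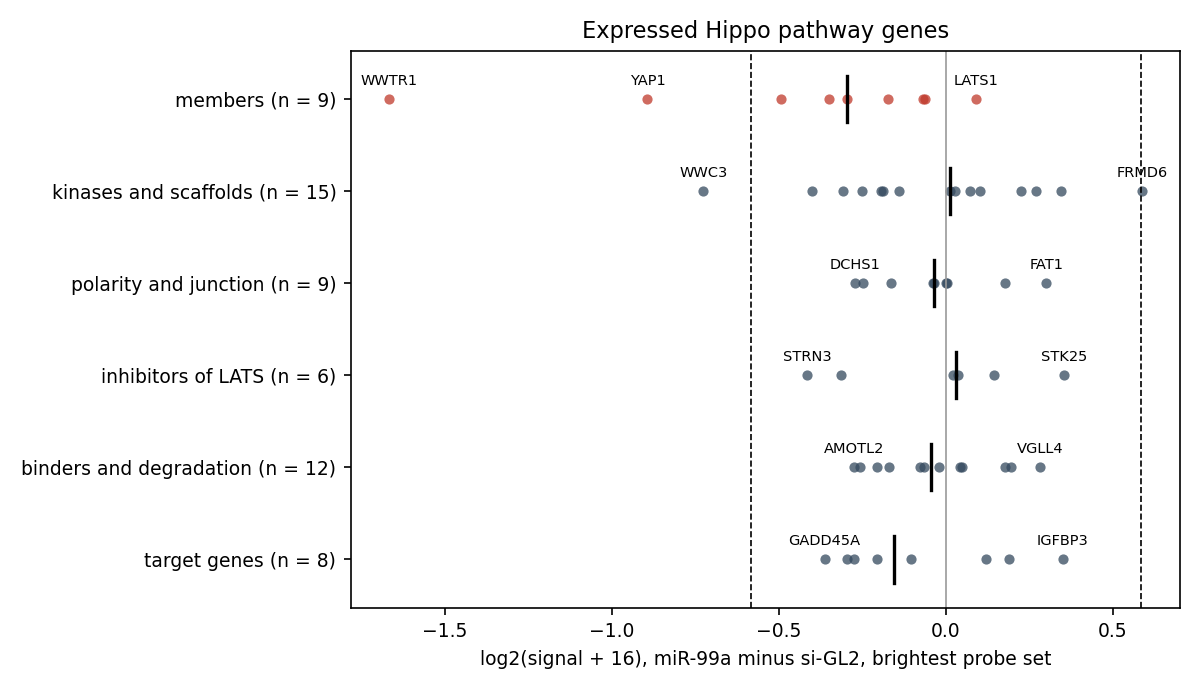
Difference of the brightest probe set, log2(signal + 16), miR-99a minus si-GL2, for the 9 expressed members and the expressed genes of the 5 pathway lists; each point is a gene, the black bar is the median and dashed lines mark 1.5-fold. WWTR1 and YAP1 lie left of the line, with WWC3 the 1 list gene beyond it and FRMD6 at the right-hand line.

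Over both arrays, the 3 other expressed genes closest to WWTR1 in their pair of log2 values were CCDC141, CNGB1 and SLC26A3. Their distances were 0.47, 0.50 and 0.54 and their differences -1.05, -0.97 and -1.51. These low differences follow from the choice by closeness to WWTR1. Each of the 3 has only 1 expressed probe set, and 2 arrays give this likeness little weight. CCDC141, with 38.7 with miR-99a and 97.1 with si-GL2, passed the expression limit only through the si-GL2 array.

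The arrays themselves were close. Their medians were 47.8 with miR-99a and 47.4 with si-GL2, and 18 probe sets of hybridisation spikes differed by between -0.12 and 0.06. Luminal prostate markers were measured for 7 of 9 genes, all expressed. By the brightest probe set 3 lay below 0 and 4 above, with 0 past 1.5-fold. Their summed signals were 28266 and 28250 (KLK2 at 6226 and 7147, FOLH1 at 378 and 312). The other 2 are not analysed here. Of 8 fibroblast markers 5 were above the limit, and the summed signals of all 8 were 572 and 524 (COL1A1 at 230 and 233, FAP at 2.07 and 3.74). Of 4 basal markers, EGFR (1424 and 1006) and ITGA6 were above it, KRT5 was at 20.1 and 14.8 and KRT14 at 15.1 and 25.7, and the sums over all 4 were 2097 and 1511. The sums of 5 endothelial markers were 312 and 279 (PECAM1 at 194 and 167, CDH5 at 8.58 and 3.70), and those of 3 leukocyte markers 172 and 150 (CSF1R at 59.2 and 74.3, CD3E at 73.2 and 52.8, PTPRC at 39.5 and 22.5). No marker was at 0, and 0 expressed markers passed 1.5-fold by the brightest probe set. Among dimmer expressed probe sets, the lowest of KLK2 (-0.78) and the highest of EGFR (0.65) did pass. The sums of all 4 lists of other cell types were higher after miR-99a, but their genes did not all move that way. COL1A1, THY1, FAP, KRT14, VWF, KDR and CSF1R were lower and the rest higher. The basal sum rests mainly on EGFR and ITGA6 (638 and 465). The part of these markers in the differences above was not tested.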

How the data were processed

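Each array's intensity values were deposited by the authors as 1 linear number a probe set. Per the labels' protocols, Trizol was used for the RNA and biotin for labelling, as Affymetrix prescribes. How probes were summarised and arrays scaled is not given in the sources used here. Intensities were used as log2(signal + 16). The array annotation gave 41097 probe sets 1 gene name, and those with several or none were left out. A gene was represented by its brightest probe set. All members are named, as are, from each pathway list, the genes past 1.5-fold with the highest and lowest, from each marker list the highest and lowest level, and the 3 genes nearest to WWTR1; further genes were named after their values were seen. The members and lists were chosen with earlier results of these data known. The number of arrays, 1 a condition, limits the precision. Alternatives were pseudocounts of 1 and 64, median centring, quantile normalization, the mean over probe sets, no _x_ or _s_ probe sets, a 2-fold rule, no expression limit and, for the lists, a limit at the 75th percentile. Python 3.11.15, numpy 2.4.6 and pandas 2.3.3 were used.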

Additional observations from a re-analysis of the deposited data

How the results depend on the processing

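Of 219 values recomputed under 9 alternatives, 202 were scored as the same. For a gene this meant the same side of 1.5-fold and a shift within 1 SD of expressed genes (0.26). Medians had to stay within 1 SD and counts within 1.5 times, and many counts were 0 throughout. A change of direction was scored only for member genes already past 1.5-fold, and 0 were found. Values near 0 did change sign. Among them, TEAD4 went from -0.07 to 0.01 as the mean over probe sets. The median of kinases and scaffolds went from 0.01 to -0.11 without _x_ and _s_ probe sets. WWTR1 was at -2.06 with a pseudocount of 1, at -1.06 with 64 and at -0.88 as the mean over its probe sets. Under that mean 1 member gene was lower, WWTR1, and YAP1 was at -0.55. At 2-fold 1 member gene and 2 member probe sets were lower, and 0 kinases and scaffolds were lower or higher. The 1 higher gene of that list, FRMD6, gave a count of 0 with a pseudocount of 64, median centring, the mean over probe sets or the 75th percentile limit. Without _x_ and _s_ probe sets 1 polarity gene was higher (LLGL2), and with no expression limit 1 target gene was lower (NT5E). CCN2 was at -0.24 with a pseudocount of 64. No paired analysis was possible because each condition has 1 array. Dim signals limit WWTR1, CCN1, CCN2, TEAD2 and the lowest LATS2 probe set.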
